A study of Mus musculus with 42 samples.

Results

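Tuft cells are rare chemosensory cells of the gut epithelium, and 7 genes that mark them were followed here through the mouse colon: Dclk1, Trpm5, Pou2f3, Il25, Alox5ap, Avil and Sh2d6. The members were taken by gene name as markers of the cell type and looked up in all 12 tables of the series, which hold 19232 differently named rows in all. A row was found for 6 of the 7. Dclk1, Trpm5, Avil and Sh2d6 had a row in 12 of 12 tables, Pou2f3 in 9 and Alox5ap in 4. Il25 had no row in any table. A table keeps only rows above a lowest mean value, between 1.72 and 7.39 normalised counts, so a gene without a row gives no value and is not known to be at 0.

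The tuft cell lineage is set by the POU-domain transcription factor Pou2f3. Mature tuft cells sense luminal metabolites through taste-type receptors and phospholipase C, which open the cation channel Trpm5, and they then release the cytokine Il25, acetylcholine and eicosanoids made with the help of Alox5ap. Dclk1 is a microtubule-associated kinase also known from neurons, Avil (advillin) bundles actin in the long apical tuft, and Sh2d6 is an SH2-domain adaptor protein. In the gut, Il25 from tuft cells starts a type 2 immune loop that in turn expands tuft and goblet cells.

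Bulk RNA sequencing was read in 42 libraries. Mice carried Gli1-CreERT2, which recombines in Gli1+ stromal cells beneath the epithelium, and were collected on day 30 after 5 daily injections of 100 µl tamoxifen at 20 mg/ml. The control mice had no floxed target (GWT), GS4 mice lost Smad4 and GA3 mice lost Alk3 (gene Bmpr1a) in Gli1+ cells, and all 3 genotypes received tamoxifen. Muc2-mCherry positive goblet cells (GWTM2, GS4M2, GA3M2) and Gli1-tdTomato positive cells (GWTT, GS4T, GA3T) were sorted from proximal and distal colon of separate mouse lines, with 2 libraries per genotype, segment and cell type. Recombination was thus directed at Gli1+ cells and not at the Muc2+ cells. According to the study's methods, young adult mice of both sexes were used. Wild-type colonic organoids, which are epithelial cultures without stroma, received 10 nM IL1a+IL1b (IL1), 10 nM IL17a (IL17A) or neither, and were collected after 12 or 72 h with 3 libraries per group. No label states that libraries of a group came from separate mice or cultures, so the p-values measure only the spread between these libraries.

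Depth was 15647603 to 20783127 reads in Muc2+ libraries, 14222902 to 23686940 in Gli1+ libraries and 14815170 to 17665812 in organoids. Smad4 in Gli1+ cells read 1781 and 1703 normalised counts in distal controls against 680 and 1171 in GS4T, and Bmpr1a read 3359 and 3485 against 2203 and 2043 in GA3T, so transcripts of both targets remained. In Muc2+ cells Bmpr1a read 1336 to 1572 normalised counts in GA3M2 against 1588 to 2131 in GWTM2, and 1374 to 1586 in GS4M2 against 1660 to 2015 in GWTM2, both without overlap. Goblet markers summed to 10229 to 63436 CPM (reads of a gene scaled to equal library totals) in Muc2+ cells and stromal markers to 41009 to 58098 CPM in Gli1+ cells, which matched the labels of both sorts. No library was sorted for tuft cells, and in bulk RNA fewer cells of a type and less RNA per cell cannot be told apart. The organoid controls labelled 12 h replicate 2 and 72 h replicate 1 held the same reads in all 14733 genes shared by their tables, and so did 12 h replicate 4 and 72 h replicate 4. The 18 organoid labels therefore hold 16 distinct libraries, and no member was compared between 12 h and 72 h. The remaining 72 h control, replicate 2, was near-identical to 72 h replicate 4. Their chi-square over genes was 3.30 per degree of freedom. It was 62.0 for 72 h controls 1 and 2, a male and a female library by Xist and Y-linked genes. For 12 h controls 1 and 2, both male, it was 26.2. No 72 h control is thus clearly apart from a library labelled 12 h, so at 72 h cytokine and culture time cannot be told apart.

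The promoter sequences below are shown for Avil, Dclk1 and Trpm5. They are windows from 250 bases before to 50 bases after an annotated start (GRCm38.p6), 5′ to 3′ on the gene's strand. In the set of RefSeq promoters used here, windows were found for 4 of the 7 members, 5 in all, and not for Alox5ap, Pou2f3 or Il25. Capitals mark the octamer core ATGCAAA, the sequence that POU factors such as Pou2f3 bind, searched on both strands and so also as TTTGCAT.
Avil, chr10:127000459-127000758, plus strand: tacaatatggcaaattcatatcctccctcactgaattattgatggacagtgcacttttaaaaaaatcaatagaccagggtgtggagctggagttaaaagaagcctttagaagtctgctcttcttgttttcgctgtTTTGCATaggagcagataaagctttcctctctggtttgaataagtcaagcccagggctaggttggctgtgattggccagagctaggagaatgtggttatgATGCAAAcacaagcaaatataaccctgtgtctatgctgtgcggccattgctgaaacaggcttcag
Dclk1, chr3:55242114-55242413, plus strand: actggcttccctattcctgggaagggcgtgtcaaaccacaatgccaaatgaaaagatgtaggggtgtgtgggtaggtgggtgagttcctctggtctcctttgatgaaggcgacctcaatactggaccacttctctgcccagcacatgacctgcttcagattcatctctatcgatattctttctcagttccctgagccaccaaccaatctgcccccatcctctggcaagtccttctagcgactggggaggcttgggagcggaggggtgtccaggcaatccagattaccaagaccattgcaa
Dclk1, chr3:55461478-55461777, plus strand: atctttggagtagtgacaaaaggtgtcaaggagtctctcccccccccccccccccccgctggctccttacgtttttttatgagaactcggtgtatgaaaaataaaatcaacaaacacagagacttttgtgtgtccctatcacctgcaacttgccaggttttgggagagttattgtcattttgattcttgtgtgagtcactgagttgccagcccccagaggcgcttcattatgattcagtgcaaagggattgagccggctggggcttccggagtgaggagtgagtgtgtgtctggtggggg
Trpm5, chr7:143094593-143094892, minus strand: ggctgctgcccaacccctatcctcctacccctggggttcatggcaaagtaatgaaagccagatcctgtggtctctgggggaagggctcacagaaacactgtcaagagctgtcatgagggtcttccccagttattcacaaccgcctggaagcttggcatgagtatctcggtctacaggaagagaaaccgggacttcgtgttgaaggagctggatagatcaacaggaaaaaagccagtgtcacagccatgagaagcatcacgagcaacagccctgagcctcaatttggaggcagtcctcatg

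The Avil window held the core on both strands, TTTGCAT beginning 115 bases before the start and ATGCAAA beginning 15 bases before it. Neither Dclk1 window, nor those of Trpm5 and Sh2d6, held the letters. Of 32851 promoter windows in the same table, 1520 or 4.63% held the core. A match of letters is a description of the window and no evidence of binding.

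Each member had its own place in the 3 systems. Dclk1 (ENSMUSG00000027797, chr3:55242364-55539068, plus strand) ranged from 65.6 to 112 CPM with a median of 101 over the 12 Gli1+ libraries. In Muc2+ cells it ranged from 0.235 to 2.43 CPM with a median of 1.12, and in organoids from 0.0568 to 4.20 CPM with a median of 0.915. The ranges of Gli1+ cells and of the other systems lay far apart, with the Gli1+ stromal sort highest. Trpm5 (ENSMUSG00000009246, chr7:143069153-143094642, minus strand) had the opposite order. It ranged from 0.879 to 4.28 CPM in Muc2+ cells, from 0.108 to 0.803 CPM in Gli1+ cells and from 0.238 to 2.64 CPM in organoids, so that every Muc2+ library lay above every Gli1+ library.

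Avil (ENSMUSG00000025432, chr10:127000709-127020994, plus strand) overlapped across all systems, with medians of 4.86 CPM in Muc2+ cells, 3.29 CPM in Gli1+ cells and 2.25 CPM in organoids. Its highest group mean was 11.6 ± 4.44 CPM (SD, n = 2) in GWTT_proximal, and its lowest was 1.67 ± 0.179 CPM (SD, n = 3) in IL1_72h. Sh2d6 (ENSMUSG00000052631, chr6:72513641-72521707, minus strand) had medians of 1.68, 0.751 and 0.943 CPM in Muc2+ cells, Gli1+ cells and organoids. Pou2f3 (ENSMUSG00000032015, chr9:43123939-43210369, minus strand) stayed low, from 0 to 1.61 CPM in Gli1+ cells and from 0 to 1.06 CPM in organoids. Among Muc2+ cells it had a row in 4 of 12 libraries, at 0.165 to 0.454 CPM. Alox5ap (ENSMUSG00000060063, chr5:149264767-149288153, plus strand) had rows in Gli1+ cells alone, from 0 to 3.84 CPM with a median of 0.987 CPM. Il25 (ENSMUSG00000040770, chr14:54932695-54935837, plus strand) gave no value.

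**Figure D1:**
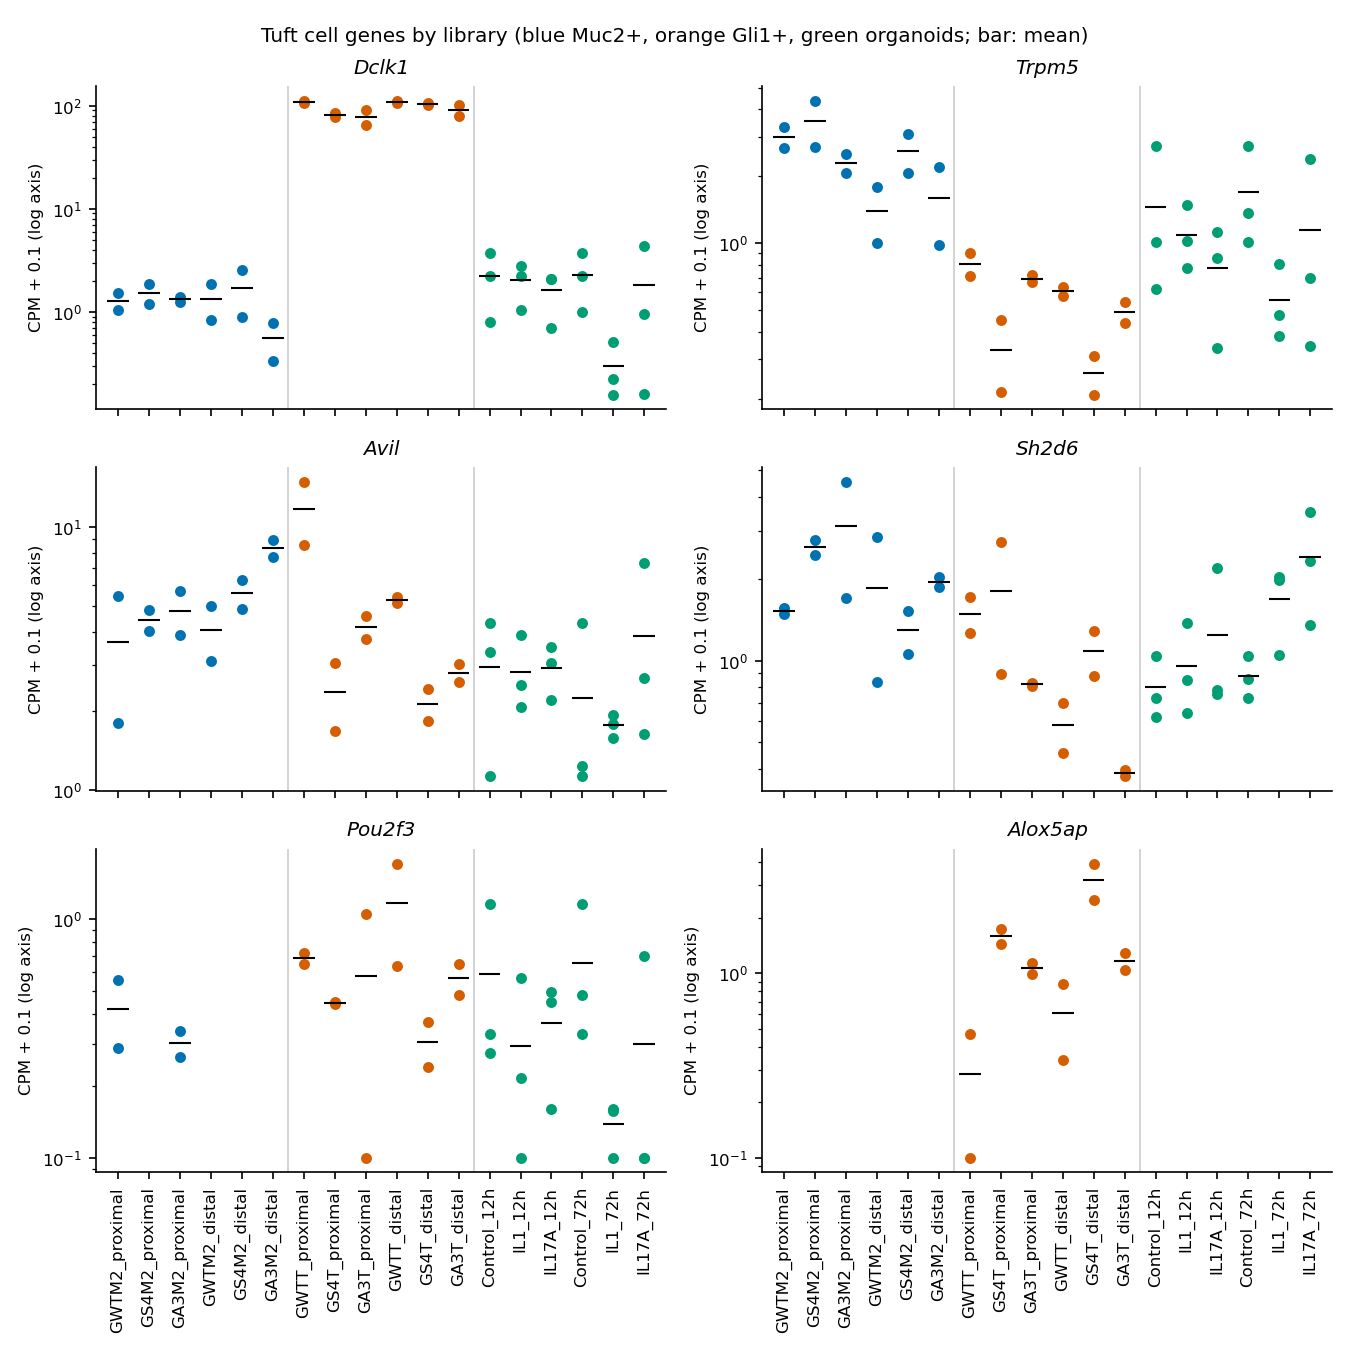
Level of 6 tuft cell genes in every library, as CPM + 0.1 on a log axis, with 1 point per library, the group mean as a bar and the 18 groups along the x axis (blue Muc2+ cells, orange Gli1+ cells, green organoids). Dclk1 lies between 65.6 and 112 CPM in Gli1+ cells and at or below 4.20 CPM elsewhere, Trpm5 is higher in Muc2+ than in Gli1+ cells, and 2 control libraries appear under both organoid times.

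Per length of exon (RPKM, CPM per kilobase), Dclk1 led in Gli1+ cells with a mean of 6.24, followed by Avil at 1.36, Alox5ap at 0.859, Sh2d6 at 0.548, Pou2f3 at 0.170 and Trpm5 at 0.0673. In Muc2+ cells Avil had a mean of 1.48 RPKM, Sh2d6 1.16, Trpm5 0.360 and Dclk1 0.0777. In organoids the means were 0.782 RPKM for Avil, 0.758 for Sh2d6, 0.145 for Trpm5, 0.0954 for Dclk1 and 0.0797 for Pou2f3. Avil and Sh2d6 therefore led in both epithelial systems. Most neighbours in the order of the groups overlapped for Dclk1, Trpm5, Avil, Sh2d6 and Pou2f3, while Alox5ap, with values in 6 groups, had 3 steps apart and 2 with overlap. Among the exceptions was Dclk1, whose lowest Gli1+ group (GA3T_proximal, 65.6 to 90.7 CPM) lay apart from its highest other group (Control_72h, 0.885 to 3.58 CPM).

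Exons of 4 members share bases with a gene on the opposite strand. Trpm5 shares 220 bases with Tssc4, Alox5ap shares 189 with Gm19719, Avil shares 165 with Tsfm, and Dclk1 shares 87 with Gm42609 and 27 with Gm21954. The strand setting of the counting is not given in the sources used here, so reads of these stretches cannot be assigned to either partner.

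Control Muc2+ and control Gli1+ cells were compared over 4 libraries of each, both segments together, by limma on log2(CPM + 0.1). Segment was in the model, and same-numbered proximal and distal libraries were not paired. Their deviations correlated at 0.57 in GWTM2 and 0.19 in GWTT. The p-values thus treat as separate libraries that may in part come from the same mouse. Trpm5 was 0.907 and 1.69 CPM in GWTM2_distal and 2.58 and 3.23 CPM in GWTM2_proximal, against 0.477 to 0.803 CPM in the 4 GWTT libraries. It was higher in Muc2+ cells by a log2 fold change of 1.52 (SE 0.32, limma adjusted p = 0.00296). Dclk1 ran from 0.737 to 1.75 CPM in GWTM2 and from 106 to 112 CPM in GWTT, a log2 fold change of -6.45 (SE 0.26, limma adjusted p = 4.72e-07). These 2 of the 4 members tested were called, where a call needs an adjusted p below 0.05 together with a log2 fold change of 1 or more in either direction, while 44.9% of all 13057 genes tested were called in this comparison. The median of all genes was 0.22 on the log2 scale, and both members lay beyond it. Avil had a log2 fold change of -1.13 (limma adjusted p = 0.0545), which edgeR and DESeq2 called (adjusted p = 0.0355 and 0.00777, with 43.9% and 44.4% of all genes called), and Sh2d6 one of 0.75 (limma adjusted p = 0.195).

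In Gli1+ cells of GS4 mice, the actin bundler Avil was lower and the leukotriene helper Alox5ap was higher than in control cells. Avil in proximal colon was 249 and 140 normalised counts in GWTT against 48.0 and 26.9 in GS4T. Both knockout libraries lay below both controls. The log2 fold change was -2.35 (SE 0.45, 95% interval -3.50 to -1.19, limma adjusted p = 0.0314), and Avil was the 1 member called of 4 tested, with 9.61% of all genes called. The call was lost without GWTT replicate 1 (-1.94, limma adjusted p = 0.0711), GS4T replicate 1 (-2.75, 0.125) or GS4T replicate 2 (-1.94, 0.156), with the direction kept in each. Avil in distal colon was 87.0 and 82.3 normalised counts in GWTT and 28.3 and 38.8 in GS4T, also without overlap. Its log2 fold change of -1.33 (SE 0.37) missed the threshold in limma (adjusted p = 0.0505) and passed it in DESeq2 (adjusted p = 0.0302, with 15.8% of all genes called).

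Alox5ap binds arachidonic acid and hands it to 5-lipoxygenase, the first step towards leukotrienes. In distal colon it was 3.91 and 12.6 normalised counts in GWTT and 62.9 and 39.9 in GS4T, the knockout libraries being higher in each case. The log2 fold change was 2.65 (SE 0.69, 95% interval 0.95 to 4.35, limma adjusted p = 0.0428). Alox5ap was the 1 member called of 5 tested, where 14.0% of all genes were called. The call was lost whichever of the 4 libraries was left out (log2 fold change 1.91 to 3.38, limma adjusted p from 0.0541 to 0.155). In proximal colon Alox5ap was 6.20 and 0 normalised counts in GWTT and 26.7 and 22.9 in GS4T, where a count of 0 allows up to 3 reads. The same direction was seen there without a call (3.26, SE 1.12, limma adjusted p = 0.112), and with library sex as a block, chosen after seeing the data, Alox5ap was called (limma adjusted p = 0.0198). That block leaves the 1 female control library, with 0 reads, as the comparison, so its fold rests on the pseudocount and is not given.

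**Figure D2:**
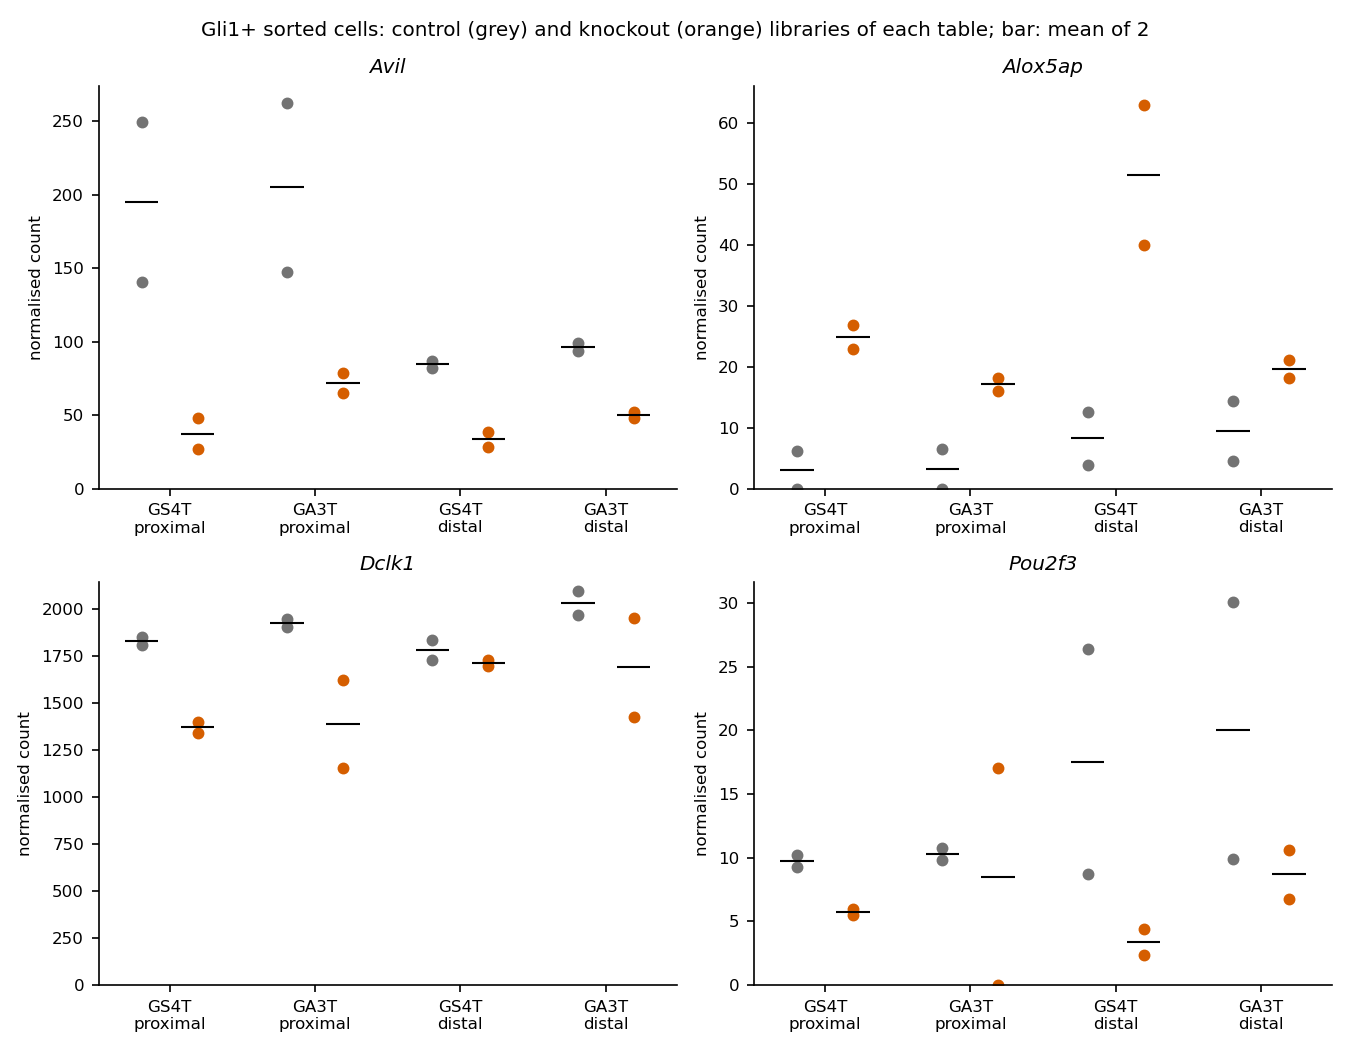
Normalised counts of Avil, Alox5ap, Dclk1 and Pou2f3 in Gli1+ cells, with control libraries in grey and knockout libraries in orange for each table and the mean of 2 libraries as a bar. Avil is lower and Alox5ap higher in both knockout libraries than in both controls in all 4 tables, and the same control libraries serve the GS4T and the GA3T table of a segment. The share of all genes that lie apart in this way was not counted.

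Markers of other cells moved in the same libraries. Macrophage markers (10 of 10 with a row) summed to 198 to 298 CPM in GWTT_proximal and 620 to 1235 CPM in GS4T_proximal, and to 561 to 620 CPM in GWTT_distal and 1117 to 1608 CPM in GS4T_distal. Neutrophil markers (4 of 8 with a row in every library) summed to 2.08 to 6.30 CPM over the 4 GWTT libraries, to 38.6 to 62.8 CPM in GS4T_proximal and to 143 to 161 CPM in GS4T_distal. Epithelial markers (6 of 6) summed to 13.1 to 496 CPM in GWTT, 684 to 1578 CPM in GS4T and 431 to 1009 CPM in GA3T. No marker counted here was at 0 over a whole group. These lists rose in summed level where Alox5ap was higher and Avil was lower, and their part in either result was not tested. By inspection of Xist and Y-linked genes, all GS4T and both GWTT_distal libraries were female and GWTT_proximal held 1 male and 1 female library.

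The remaining members of the Smad4 comparison were low or little changed. Trpm5 was 10.3 and 13.3 normalised counts in GWTT_proximal and 1.84 and 5.98 in GS4T_proximal, and 7.82 and 8.71 in GWTT_distal and 1.77 and 3.52 in GS4T_distal. It lay below the controls in both segments, under the mean of 10 normalised counts required for the test. Pou2f3 was 26.4 and 8.71 normalised counts in GWTT_distal and 4.43 and 2.35 in GS4T_distal (log2 fold change -1.94, limma adjusted p = 0.157), and 9.31 and 10.2 against 5.53 and 5.98 in proximal colon, where it was not tested. Dclk1 in proximal colon was 1807 and 1850 normalised counts in GWTT and 1397 and 1340 in GS4T. Its log2 fold change of -0.42 (SE 0.09) had a limma adjusted p of 0.0439 and did not reach the fold required for a call. In distal colon Dclk1 was 1834 and 1728 against 1728 and 1694 (log2 fold change -0.06, limma adjusted p = 0.719). Sh2d6 was 19.6 and 26.6 against 12.9 and 44.9 in proximal colon and 9.78 and 5.81 against 19.5 and 12.9 in distal colon, with no call in either.

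The loss of Alk3 in Gli1+ cells was compared with the same control libraries, so the values stand beside those of Smad4 without being independent of them. Avil in proximal colon was 262 and 148 normalised counts in GWTT and 65.1 and 78.5 in GA3T (log2 fold change -1.45, SE 0.37, limma adjusted p = 0.135). DESeq2 called this difference (adjusted p = 0.0136, with 6.29% of all genes called) and edgeR did not (adjusted p = 0.140). In distal colon it was 99.3 and 93.6 against 51.9 and 47.8 (log2 fold change -0.94, limma adjusted p = 0.214). Avil thus lay below the controls in every knockout library of every Gli1+ table, with a call by limma in 1 of the 4. The number of all genes that lay apart in this way was not counted, so this is no result particular to Avil. Alox5ap was 6.53 and 0 normalised counts against 16.0 and 18.2 in proximal colon and 4.46 and 14.3 against 21.0 and 18.1 in distal colon (log2 fold changes 2.72 and 1.16, limma adjusted p = 0.271 and 0.460). Macrophage markers summed to 648 to 1031 CPM in GA3T_proximal and 759 to 810 CPM in GA3T_distal, and neutrophil markers to 10.6 to 35.9 CPM over both, beside which the part of these cells in the values was not tested.

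By limma 0 of 5 members were called in GA3T_proximal, where 0.358% of all genes were called, and 0 of 4 in GA3T_distal, where 0% were. Avil and Dclk1 in GA3T_proximal and Avil in GA3T_distal had an unadjusted p under 0.05, as had 3311 of 15346 and 2885 of 15414 genes tested. DESeq2 called 1 member in GA3T_proximal and 0 in GA3T_distal, and edgeR called 0 in both. Dclk1 was 1902 and 1945 normalised counts in GWTT_proximal and 1622 and 1151 in GA3T_proximal (log2 fold change -0.49, limma adjusted p = 0.224). Trpm5, Pou2f3 and Sh2d6 remained at or below 30.1 normalised counts in all Gli1+ libraries of the GA3T tables. Pou2f3 had 17.0 normalised counts in 1 GA3T_proximal library and 0 in the other, against 9.79 and 10.8 in the controls, so its group held both the highest and the lowest value.

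Goblet cells of the GS4M2 and GA3M2 lines, in which deletion was directed at Gli1+ cells, gave no member call. In each Muc2+ comparison 4 members were tested, and limma called 0 against 0.325% of all genes in GS4M2_proximal, 0% in GS4M2_distal, 0.0899% in GA3M2_proximal and 0% in GA3M2_distal. Both edgeR and DESeq2 also called 0 in all 4, with their shares over all genes not given here. By limma 1 unadjusted p was under 0.05, that of Avil in GA3M2_distal, where 1537 of 13082 genes tested had one. There Avil was 83.5 and 52.4 normalised counts in GWTM2 and 152 and 125 in GA3M2, a log2 fold change of 1.04 (SE 0.34, limma adjusted p = 0.371). Enteric neuron and glia markers (2 of 8 with a row in every library) summed to 3.63 to 9.12 CPM in GWTM2_distal and 28.9 to 58.8 CPM in GA3M2_distal, and their part in the Avil values was not tested. Trpm5 was 54.9 and 44.3 normalised counts against 43.1 and 72.3 in GS4M2_proximal and 16.1 and 30.6 against 33.2 and 52.4 in GS4M2_distal. The proximal values overlapped and the distal ones did not (log2 fold changes 0.18 and 0.88, limma adjusted p = 0.845 and 0.554). Goblet markers (9 of 9) summed to 31165 to 63436 CPM in GWTM2 and 10229 to 24670 CPM in GA3M2, and all GS4M2 and GA3M2 libraries were male while GWTM2 held 1 male and 1 female library in each segment. Their part in these values was not tested.

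Sh2d6 was 24.9 and 23.7 normalised counts in GWTM2_proximal and 44.1 and 39.7 in GS4M2_proximal, the knockout libraries being higher (log2 fold change 0.76, 95% interval -0.05 to 1.57, limma adjusted p = 0.322). In the GA3M2_proximal table it was 26.5 and 25.1 against 29.2 and 84.9, so that 1 library carried most of the difference. Dclk1 stayed between 3.83 and 42.3 normalised counts in all Muc2+ tables. Its largest difference was in GA3M2_distal, 12.5 and 30.6 against 11.7 and 3.83 (log2 fold change -1.39, limma adjusted p = 0.553). Within these libraries the members did not vary as 1 group. Over the 12 Muc2+ libraries the correlation of log2(CPM + 0.1) was 0.72 for Dclk1 with Trpm5 and -0.27 for Trpm5 with Avil, a description over libraries that share genotype and segment.

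**Figure D3:**
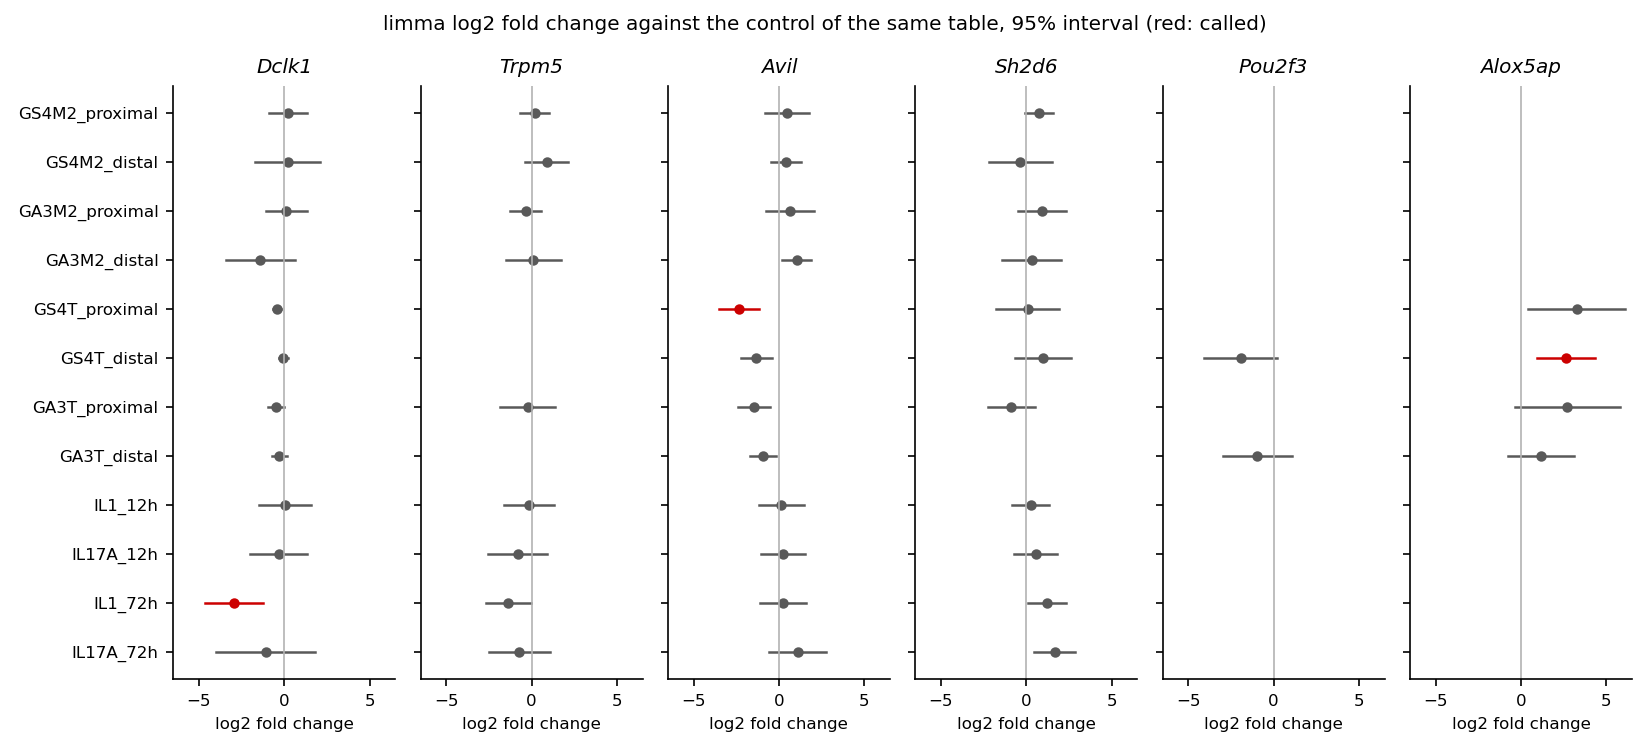
limma log2 fold change with its 95% interval (x axis) for each member tested in each of the 12 tables (y axis), knockout or cytokine against the control of that table, with calls in red. The 3 calls are Avil lower in GS4T_proximal, Alox5ap higher in GS4T_distal and Dclk1 lower in IL1_72h.

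In organoids, Dclk1 was lower after 72 h of IL1 than in the controls. Dclk1 was 54.1, 13.3 and 31.4 normalised counts in the controls and 2.41, 6.98 and 1.10 after IL1, which corresponds to 61, 14 and 37 reads against 2, 7 and 1. All treated libraries lay below all controls. The log2 fold change was -2.94 (SE 0.74, 95% interval -4.64 to -1.23, limma adjusted p = 0.0172), and Dclk1 was the 1 member called of 4 tested, where 23.0% of all genes were called. The call was lost without the control replicate 1 (-2.49, limma adjusted p = 0.0522), the control replicate 4 (-2.87, 0.0652) or IL1 replicate 3 (-2.50, 0.0552). It was also lost when both controls that stand under the 12 h label as well were left out (-1.90), an alternative chosen after seeing the data. That fit leaves 1 control, replicate 2, which was itself near-identical to control replicate 4. With a block on replicate number, which is not stated to pair libraries, the call was lost as well.

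The other members after 72 h of IL1 gave no call by limma. Trpm5 was 39.9, 19.1 and 13.6 normalised counts in the controls and 7.22, 12.0 and 5.48 after IL1, again without overlap (log2 fold change -1.37, SE 0.57, limma adjusted p = 0.0902). Pou2f3 was 16.0, 5.72 and 3.39 normalised counts in the controls and 0, 0.996 and 1.10 after IL1, or 18, 6 and 4 reads against 0, 1 and 1. It fell under the filter on low values, and in the limma fit without that filter it was called (adjusted p = 0.0396, with 20.5% of all genes called), at a fold that rests on the pseudocount. Sh2d6 went the other way, from 14.2, 11.4 and 9.33 to 37.3, 15.9 and 36.2 (log2 fold change 1.21, SE 0.49, limma adjusted p = 0.0841). Avil was 63.9, 17.1 and 15.3 in the controls and 32.5, 30.9 and 28.5 after IL1, inside the range of the controls (log2 fold change 0.24, limma adjusted p = 0.764).

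**Figure D4:**
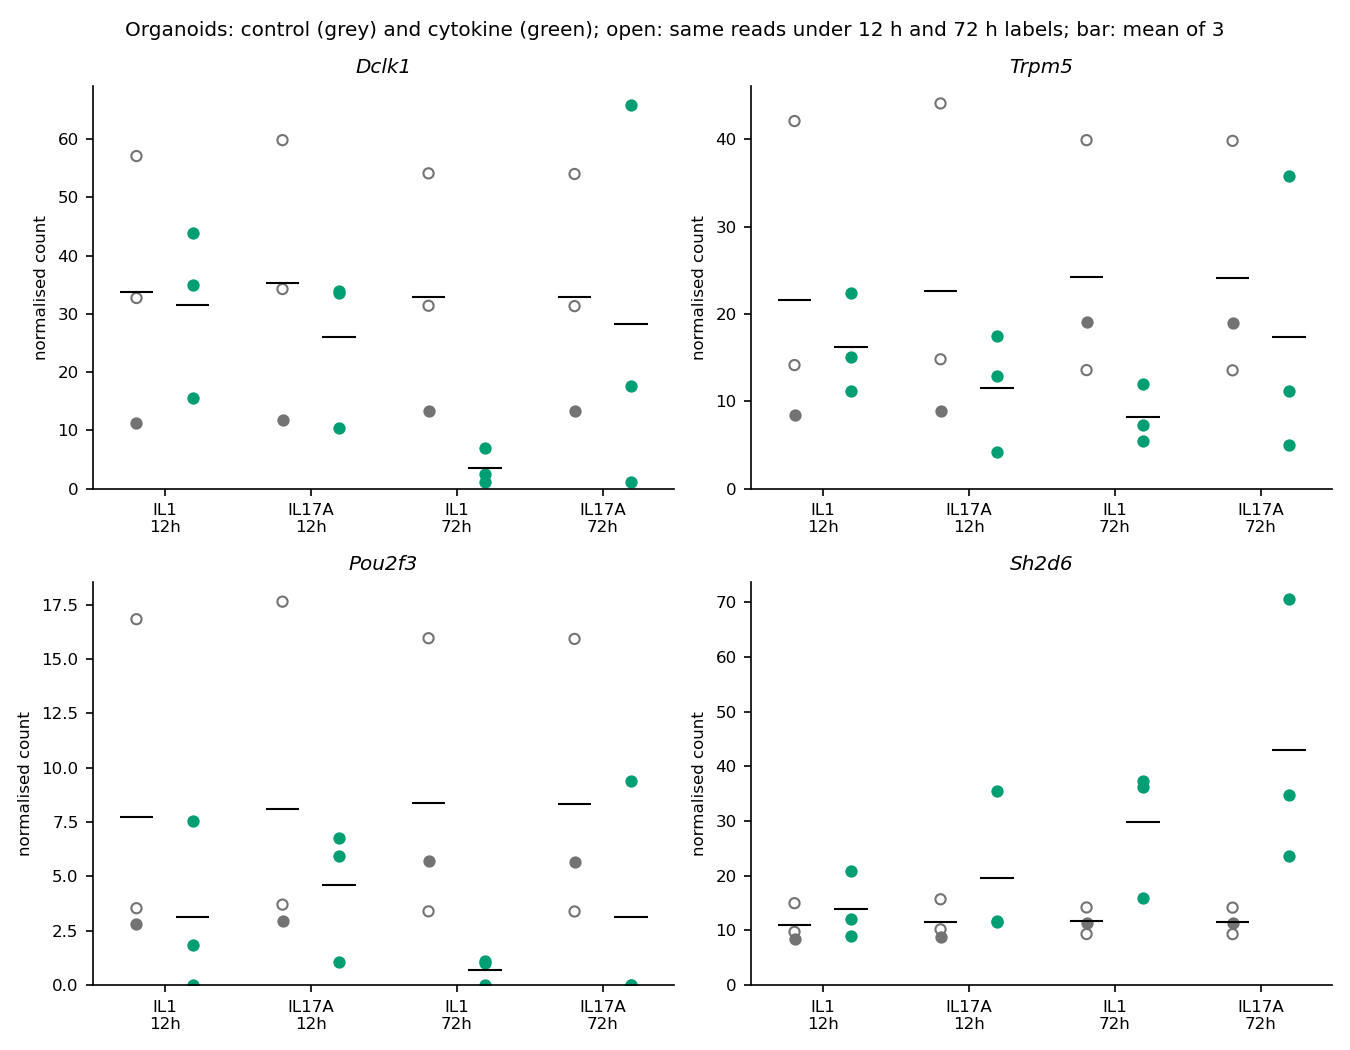
Normalised counts of Dclk1, Trpm5, Pou2f3 and Sh2d6 in organoids for the 4 tables (x axis), with control libraries in grey, cytokine libraries in green, open points for reads that stand under both control labels and the mean of 3 libraries as a bar. After 72 h of IL1, Dclk1, Trpm5 and Pou2f3 lie below and Sh2d6 above all controls, and after 72 h of IL17A the values of Dclk1 spread from 1.12 to 65.9.

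After 72 h of IL17A the members spread widely. Dclk1 was 54.0, 13.3 and 31.3 normalised counts in the controls and 1.12, 65.9 and 17.6 after IL17A, so that the treated libraries held both the lowest and the highest value. Trpm5 ran from 13.5 to 39.8 in the controls and 5.04 to 35.8 after IL17A. Avil ran from 15.2 to 63.7 and 31.5 to 113, and Pou2f3 from 3.39 to 15.9 and 0 to 9.41. IL17A replicate 2 held the highest treated value of each of these members. Its chi-square over genes was 87.0 to 102 per degree of freedom against the controls. Against IL17A replicates 1 and 3 it was 111 and 212. Those replicates had 223 to 348 against the controls. Sh2d6 was 14.2, 11.4 and 9.31 in the controls and 23.5, 34.8 and 70.5 after IL17A, all higher than the controls. Its log2 fold change of 1.67 (SE 0.51, 95% interval 0.47 to 2.87) missed the threshold in limma (adjusted p = 0.0677) and in edgeR (adjusted p = 0.0630) and passed it in DESeq2 (adjusted p = 0.0164, with 17.7% of all genes called). By limma 0 of 4 members were called, where 7.94% of all genes were called, and 1 had an unadjusted p under 0.05. Over all genes 5037 of 13073 had one. All 3 IL17A_72h libraries were male by Xist and Y-linked genes, while the 72 h controls were 1 male and 2 female. With library sex as a block the Sh2d6 fold change was 1.39 (limma adjusted p = 0.319).

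Marker levels of other cells were summed in the same 72 h libraries. Colonocyte markers (7 of 7) summed to 2093 to 4572 CPM in the controls, 5039 to 11698 CPM after IL1 and 3034 to 10110 CPM after IL17A. Goblet markers (9 of 9) summed to 7170 to 7919 CPM in the controls, 2456 to 10846 CPM after IL1 and 2436 to 9954 CPM after IL17A. Colonocyte sums lay above all controls after IL1 and overlapped them after IL17A, and goblet sums reached to both sides of the controls with either cytokine. Enteroendocrine markers (7 of 8) summed to 226 to 337 CPM, 348 to 711 CPM and 363 to 586 CPM in the same order. The 4 of 10 macrophage-list genes with a row summed to 46.4 to 82.5 CPM in the controls, 117 to 261 CPM after IL1 and 115 to 261 CPM after IL17A. No marker of these lists was at 0 over a group. With 4 of 10 macrophage-list genes read, their sum does not show that macrophages were present. The part of these marker levels in the tuft gene values was not tested.

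At 12 h no member was called with either cytokine. Dclk1 was 11.2, 57.1 and 32.7 normalised counts in the controls and 15.6, 34.9 and 43.8 after IL1 (log2 fold change 0.05, limma adjusted p = 0.987). The corresponding values for IL17A were 11.8, 59.8 and 34.2 against 10.4, 33.6 and 33.9 (log2 fold change -0.33, limma adjusted p = 0.944). All members with a row overlapped between groups at this time. By limma 0 of 4 members were called in both tables, where 0.0542% of all genes were called with IL1 and 0.0385% with IL17A. In these fits, without a replicate block, 0 members had an unadjusted p under 0.05 or a call by edgeR or DESeq2. Over all genes 565 of 12913 with IL1 and 667 of 12977 with IL17A had such an unadjusted p by limma. Control replicates 1 and 2 and cytokine replicates 1 were male, and control replicate 4 and cytokine replicates 3 and 4 female. Deviations of same-numbered libraries correlated at 0.62 to 0.64, which these fits do not take into account. With a replicate block, calls over all genes rose from 7 to 100 with IL1 and from 5 to 120 with IL17A, and 0 members were called. Sh2d6, which was higher in every treated library at 72 h, was 8.85, 15.7 and 10.2 in the controls and 11.5, 35.6 and 11.6 after IL17A at 12 h. Whether the effects at 12 h and 72 h differ was not tested, because the control groups share libraries.

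Proximal and distal colon were compared by CPM with genotype in the model, over 12 libraries of each sorted cell type. In Muc2+ cells Trpm5 was 0.907 and 1.69 CPM in distal and 2.58 and 3.23 CPM in proximal GWTM2 libraries, and 1.97 and 3.01 against 2.62 and 4.28 CPM in GS4M2. The difference over all genotypes was 0.75 on the log2 scale (SE 0.27, 95% interval 0.17 to 1.32, limma adjusted p = 0.0846), the largest of a member in these cells. By limma 0 of 4 members were called, against 4.64% of all genes, and 1 had an unadjusted p under 0.05, as had 3635 of 13060 genes. In Gli1+ cells Sh2d6 was 0.358 and 0.596 CPM in distal and 1.16 and 1.61 CPM in proximal GWTT libraries, and 0.276 and 0.296 against 0.707 and 0.728 CPM in GA3T. The log2 difference was 1.01 (SE 0.32, 95% interval 0.31 to 1.70, limma adjusted p = 0.208), and the GS4T libraries overlapped between segments.

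Avil in the controls was 5.07 and 5.31 CPM in distal and 8.46 and 14.7 CPM in proximal Gli1+ cells. It had a log2 difference of 0.59 over all genotypes (limma adjusted p = 0.320) and one of -0.49 in Muc2+ cells (limma adjusted p = 0.242). By limma 0 of 5 members were called in Gli1+ cells, against 0.397% of all genes. An unadjusted p under 0.05 was found for 2 members and for 1927 of 15346 genes. Neither edgeR nor DESeq2 called a member in either cell type. The test of whether a knockout effect differed between segments gave 0 calls by limma, edgeR and DESeq2 for 4 to 6 members, where limma called 0.128% of all genes for GS4T and 0% for GS4M2, GA3M2 and GA3T. One unadjusted p was under 0.05, that of Dclk1 for GS4T (difference of -0.34, limma adjusted p = 0.449), and the corresponding difference for Avil was -0.99 (SE 0.59, limma adjusted p = 0.674). For GS4T 1574 of 15577 genes had an unadjusted limma p under 0.05.

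**Figure D5:**
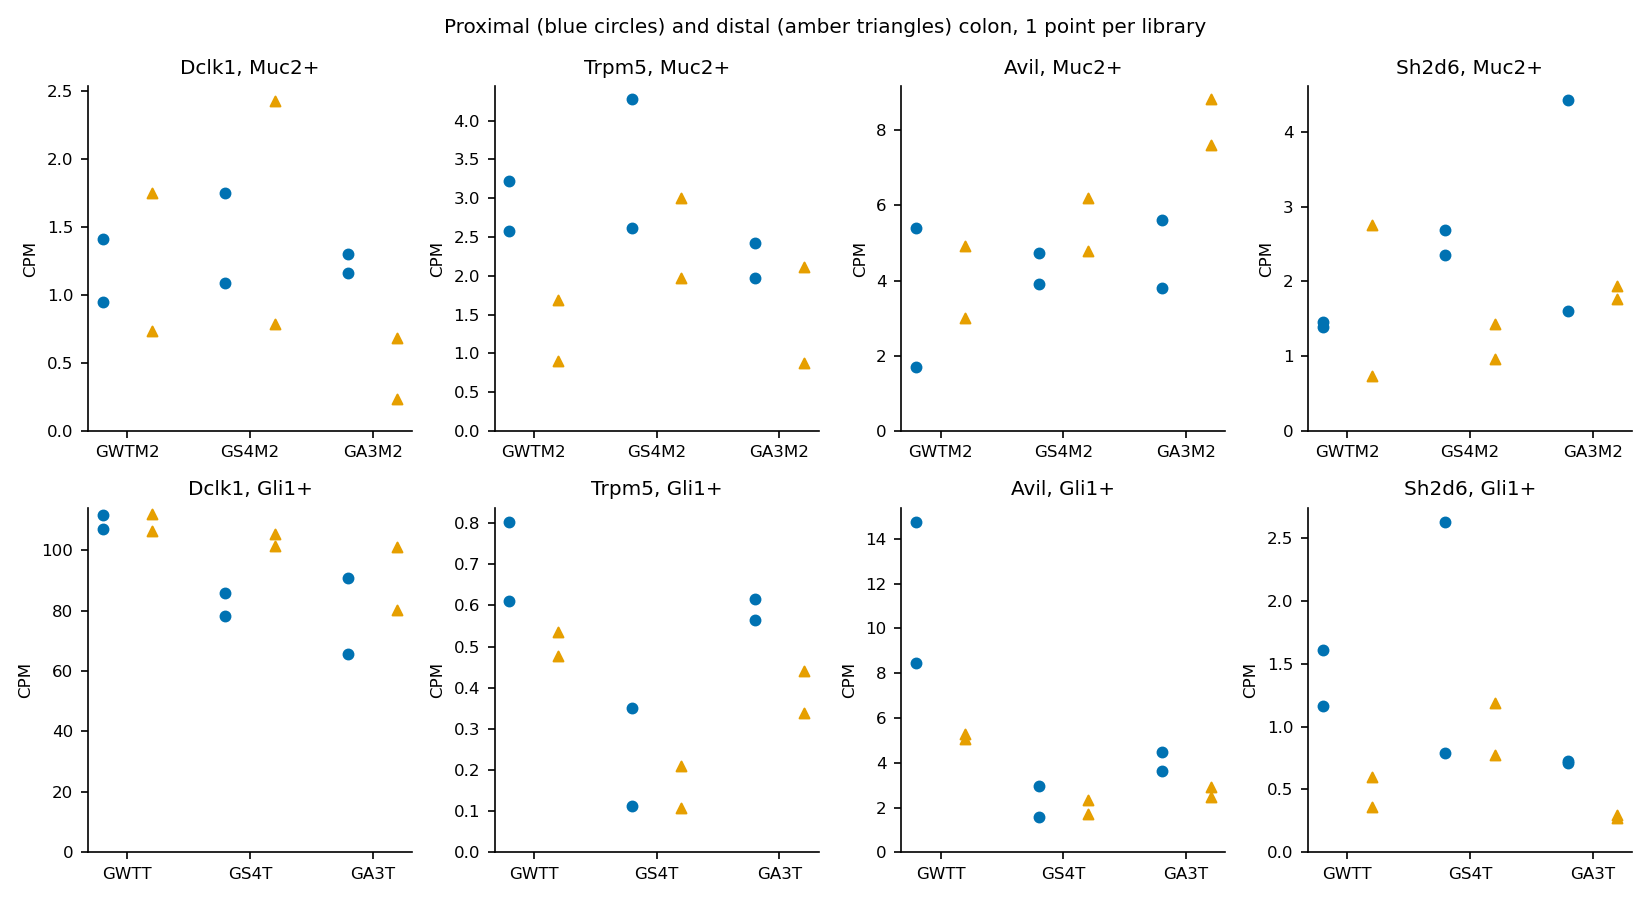
CPM of 4 members with rows in all tables by genotype (x axis), with proximal colon as blue circles and distal colon as amber triangles, 1 point per library, Muc2+ cells in the upper and Gli1+ cells in the lower row. Sh2d6 is higher in proximal than in distal libraries in GWTT and GA3T and overlaps in GS4T, and Trpm5 in GWTM2 is higher in both proximal libraries.

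A list of 29 other tuft cell genes, with taste-type signalling, eicosanoid, receptor and adaptor genes, was read in the same way. Of these 24 had a row in some table, 13 had one in all 12, and Gnat3, Gng13, Ffar3, Gfi1b and Chat had none. Several are also used by stromal or immune cells. Il13ra1 and Kctd12 were among the most abundant in both sorts, and Ptgs1 in Gli1+ cells alone. In Muc2+ cells the highest mean levels were 180 CPM for the IL-13 receptor chain Il13ra1, 65.5 CPM for the adaptor Skap2 and 32.0 CPM for Kctd12. In Gli1+ cells they were 189 CPM for the cyclooxygenase Ptgs1, 159 CPM for Kctd12 and 70.1 CPM for Il13ra1. In organoids they were 120 CPM for Il13ra1, 79.3 CPM for Skap2 and 23.8 CPM for the phosphatase Ptpn6.

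In GS4T_proximal 4 of 19 tested list genes were called higher and 1 lower, where 9.61% of all genes were called in either direction. The macrophage and neutrophil markers given above were higher in the same GS4T libraries of both segments, and their part in the list's values was not tested. Hpgds, the prostaglandin D2 synthase of haematopoietic and tuft cells, rose from 29.0 and 64.6 normalised counts to 305 and 166 (log2 fold change 2.35, limma adjusted p = 0.0414). Ptgs1 rose from 1655 and 1286 to 5239 and 3606 (1.57, 0.0156), Il13ra1 from 393 and 597 to 1530 and 1656 (1.71, 0.0124) and Skap2 from 209 and 269 to 761 and 626 (1.54, 0.0124). The succinate receptor Sucnr1 fell from 35.2 and 58.4 to 0.922 and 2.99 normalised counts, or from 34 and 57 reads to 1 and 3 (limma adjusted p = 0.0263). The list median was 0.76 on the log2 scale against 0.02 over all genes tested.

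In GS4T_distal 4 of 18 were called higher and 0 lower, where 14.0% of all genes were called in either direction. Among them were Il13ra1 (log2 fold change 1.29), Skap2 (1.51) and the haematopoietic signalling adaptor Fyb (1.50), with limma adjusted p from 0.00308 to 0.0188 for these and a list median of 0.52 against 0.00 over all genes. In both GA3T comparisons 0 of 18 were called by limma, where 0.358% of all genes were called in proximal and 0% in distal colon. Unadjusted limma p was under 0.05 for 11 in proximal and 3 in distal colon, against 3311 of 15346 and 2885 of 15414 genes tested. DESeq2 called 3 in proximal colon, where it called 6.29% of all genes, and edgeR called 0 in both. List medians were 0.67 in proximal and 0.30 in distal colon. After 72 h of IL1, Hpgds was 192, 111 and 112 normalised counts in the controls and 56.6, 41.9 and 35.1 after IL1 (-1.59, SE 0.34, limma adjusted p = 0.0106), the 1 call among 13 genes where 23.0% of all genes were called, with a list median of -0.48. Hpgds was also the 1 call of 14 between segments of Muc2+ cells, at 6.61 to 14.8 CPM in proximal and 2.22 to 5.57 CPM in distal libraries (log2 difference 1.71, limma adjusted p = 0.00106), where 4.64% of all genes were called. By limma and edgeR 0 list genes were called in the other organoid and Muc2+ tables, between segments of Gli1+ cells or between segments of the knockout effects, with 0 to 7 unadjusted p under 0.05 in each. The 7, of 16 list genes, were in GS4M2_proximal, where 2208 of 13246 genes had one by limma. The 0, of 14, was in IL1_12h, where 565 of 12913 genes had one. DESeq2 called 1 between segments of the GS4M2 effect, 1 of the GS4T effect and 0 in the rest. Its shares over all genes are not given here.

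Between control Muc2+ and Gli1+ cells 3 of 16 list genes were higher and 9 lower in Muc2+ cells, where 44.9% of all genes were called in either direction. Il13ra1 (log2 fold change 2.11), Skap2 (1.83) and Ptpn6 (1.33) were higher. Those lower included Fyb (-4.25), Inpp5d (-3.61), Kctd12 (-2.95), Alox5 (-2.21), Plcb2 (-1.98), Spib (-1.59), Il17rb (-1.50) and Vav1 (-1.06), with limma adjusted p from 7.92e-06 to 0.0343. Il17rb is a chain of the receptor for Il25, and Plcb2 is the phospholipase upstream of Trpm5. The list median was -1.28 against 0.22 over all genes. Several list genes are also used by stromal or immune cells, and the GWTT libraries held the macrophage markers given above. The part of these cells in the list's values was not tested.

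The genes whose level followed the mean of the members most closely were ranked by the correlation of log2(CPM + 0.1), as a description over libraries that share depth, genotype and segment. Over the 12 Muc2+ libraries and with Dclk1, Trpm5, Avil and Sh2d6 as members they were Hdac8 (r = 0.83), Colca2 (0.78), Stk36, Ticam1 and Rab20 (each 0.75). Over the 12 Gli1+ libraries and with 5 members they were Tmem135 and Hlx (each 0.81), Ctbs (0.81), Rab23 and Sgcb (each 0.79). Over the 16 distinct organoid libraries they were Nbea (0.91), Usp6nl (0.91), Svil (0.90), Pibf1 (0.89) and Tnfrsf19 (0.87). No gene appeared in more than 1 of these sets. Among pairs of members, Dclk1 and Trpm5 had r = 0.73 in organoids, Dclk1 and Pou2f3 0.65 in Gli1+ cells, and Alox5ap and Avil -0.77 in Gli1+ cells.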

How the data were processed

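RNA of 42 libraries (12 Muc2+, 12 Gli1+, 18 organoid) was read from 12 deposited tables, 1 per comparison. The authors aligned reads to mm10 with STAR 2.5.3 and deposited gene counts divided by DESeq2 1.28.1 size factors, a normalised signal per gene and library. The counting program, annotation and strand setting are not given in the sources used here. In every column the values were whole multiples of 1 step (100% within 0.1 of a whole number), which gave back the reads and CPM. Unnamed rows, 4 in each GS4M2 table and up to 28.2% of a library's values, were left out, and 17 to 21 gene names per table had turned into dates.

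Knockout or cytokine was compared with control within a table by limma 3.58.1 on log2(value + 1), for genes with a mean of at least 10, so fold changes of low genes are understated. Comparisons across tables used log2(CPM + 0.1) and a mean of at least 0.5 CPM. P-values were adjusted over all genes tested by Benjamini-Hochberg, and calls needed an adjusted p below 0.05 together with a log2 fold change of 1 or more in either direction. edgeR 4.0.16 and DESeq2 1.42.0 on the recovered reads, other pseudocounts, no filter, another scaling, a replicate block and leaving out each library were alternatives (R 4.3.3, Python 3.11.15). An edgeR or DESeq2 count that stands without a share over all genes is no result about the members. With 2 against 2 libraries an exact permutation test cannot go below 0.333, and with 3 against 3 not below 0.100. On simulated data for the 12 tables limma recovered 80.8% of genes changed by 2 on the log2 scale. The changed genes were drawn from all genes with a mean of at least 10, and the spread was taken from the control libraries alone. That share is therefore not a recovery rate for the members, most of which were low.

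The members and gene lists were chosen with earlier results of these data known. All 7 members were named, with the other tuft genes called by limma in any comparison, the 3 of highest mean CPM per system and the 5 genes most correlated with the members. Of the other tuft genes, 1 counted in the list totals is not reported here by name. Gene positions are from GENCODE M21 on GRCm38. Library sex was read from Xist and Y-linked genes. The near-identical organoid libraries of a group (IL1_12h 3 and 4, IL17A_12h 3 and 4, Control_72h 2 and 4) differed by more than sampling noise and were kept apart. Their chi-square over genes was 3.03 to 3.32 per degree of freedom. It was 61.9 to 62.0 for replicates 1 and 3 of the 12 h cytokine groups, which differ in sex. For 12 h controls 1 and 2, both male, it was 26.2. Whether the near-identical libraries are separate cultures is not known, and the p-values count them as separate. With each such pair averaged, 1 member call was kept, 0 were lost and 0 gained.

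Deviations of same-numbered proximal and distal libraries of a genotype correlated at 0.19 to 0.57 in all 6 pairs of groups. These numbers were therefore taken, from the data alone, to pair the segments in the replicate block. GWTT number 1 was male in proximal and female in distal colon, so those libraries did not come from 1 mouse. The segment differences and p-values in the results are from the fit with genotype and without these pairs. The comparison of control Muc2+ with control Gli1+ cells was likewise fitted without them.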

Additional observations from a re-analysis of the deposited data

Results flagged for a closer look

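In 3 cases a member moved in opposite directions in the Muc2+ and the Gli1+ cells of the same genotype and segment, with no overlap between knockout and control libraries in either. Trpm5 had a log2 fold change of 0.88 in GS4M2_distal and -1.39 in GS4T_distal, the latter from the limma fit without the filter on low values. Avil had one of 1.04 in GA3M2_distal and -0.94 in GA3T_distal. Sh2d6 had one of 0.93 in GA3M2_proximal and -0.87 in GA3T_proximal. None of the 6 values was a call by limma, and the difference between the cell types was not tested. In Gli1+ cells the Trpm5 case rests on 8 and 9 reads in GWTT_distal against 2 and 3 in GS4T_distal. In Muc2+ cells the Sh2d6 case rests on GA3M2_proximal libraries at 29.2 and 84.9 normalised counts. How many of all genes moved in this way was not counted, so the 3 cases are no result particular to the members.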

How the results depend on the processing

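No called member changed its sign under any alternative run. In IL1_72h 1 member was called, against 2 without the filter, 3 by DESeq2 at an unadjusted p, 0 with the replicate block, 0 without the controls that also stand at 12 h, and 0 to 2 when each library was left out. In GS4T_distal the count of 1 became 0 with a pseudocount of 0.1, 2 with a pseudocount of 10, 2 with upper-quartile rescaling, 2 by DESeq2 at either threshold and 0 to 0 when each library was left out. In GS4T_proximal the count of 1 became 2 by DESeq2 at an unadjusted p, 2 with library sex as a block and 0 to 1 when each library was left out, being 0 without either GS4T library. Without GWTT_proximal replicate 1 the 1 member called was Alox5ap (limma adjusted p = 0.0190) in place of Avil, against a lone control library with 0 reads, so that its fold rests on the pseudocount. The count of 0 became 1 by DESeq2 at either threshold in IL17A_72h and GA3T_proximal, and 1 at the unadjusted p in GA3M2_distal. Between control Muc2+ and Gli1+ cells 2 members were called, and 1 with a pseudocount of 1 CPM. The unadjusted threshold, the sex block and the omission of shared controls were chosen after seeing the data, and the cause of these changes was not tested.

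Replicate numbers within a table are not stated to pair libraries, and deviations of same-numbered libraries correlated at -0.19 to 0.64 (median 0.13, 16 of 24 over 0.1). With the replicate block Dclk1 in IL1_72h had a log2 fold change of -2.43 (limma adjusted p = 0.151), and no other member call changed. Over all genes the block moved the calls down from 2998 to 1558 in IL1_72h and from 1038 to 4 in IL17A_72h. It moved them up from 7 to 100 in IL1_12h, 5 to 120 in IL17A_12h, 43 to 260 in GS4M2_proximal, 12 to 699 in GA3M2_proximal, 0 to 4 in GA3M2_distal, 55 to 253 in GA3T_proximal and 0 to 62 in GA3T_distal, and by less than 1.5 times elsewhere. At 12 h, where numbers 1 and 4 correlated at 0.62 to 0.64, Avil with the block had a log2 fold change of 0.82 with IL17A (limma p = 0.00697, adjusted p = 0.0767) and 0.75 with IL1 (limma p = 0.0277, adjusted p = 0.255). For the segments, where the numbers were taken as pairs, it changed no member call.

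The comparison of 72 h with 12 h controls and of cytokine effects between the times was not run, since the controls share libraries. With 2 libraries per sorted group, leaving one out assumes that the lone library varies like the other group. Trpm5, with 2 to 13 reads, and Pou2f3, with 0 to 27 reads, are limited by depth in Gli1+ cells.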
